A study of Sus scrofa with 9 samples.

Results

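Hepcidin, listed in the table as HAMP, and 9 genes of the BMP/SMAD pathway that sets its transcription were followed through the livers of Wujin pigs fed different amounts of iron. The members were taken by symbol from the deposited gene table. All 10 of the 10 symbols were found among the 25918 genes listed, and all 10 had a mean of at least 0.5 FPKM over the libraries, as 12584 genes of the table did. FPKM scales the fragments of a gene by transcript length and by the mapped fragments of the library.

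Liver RNA came from 9 Wujin pigs, with 3 libraries in each group. The control group had 100 mg/kg of iron added to the basic diet as iron glycinate, the low-iron group had no iron added, and the high-iron group had 200 mg/kg added. The pigs were 35 days old at the start and were fed for 30 days after 5 days of prefeeding. All groups ate the same basic diet, so the low-iron diet was one without added iron and not one free of iron. The labels give no sex or batch for a library. Libraries are named here by group and by the number in their label. The Y-linked gene EIF1AY measured 15.2 and 21.7 FPKM in low-iron libraries 2 and 7. It measured 15.0 and 20.2 FPKM in control libraries 4 and 6, and 26.5 FPKM in high-iron library 7. In low-iron library 3, control library 5 and high-iron libraries 2 and 8 it was listed at 0. The high-iron group thus held fewer libraries with this gene than either other group.

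Hepcidin is a peptide hormone that hepatocytes secrete. It binds the iron exporter ferroportin, so that less iron enters the blood from the gut and from macrophages. Its gene is switched on when BMP ligands made mainly by liver endothelial cells bind BMP receptors on the hepatocyte, which phosphorylate the receptor SMADs. These join SMAD4 and bind the HAMP promoter, while the same signal induces its own inhibitors and other target genes.

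The promoters of HAMP and of SMAD7, an induced inhibitor, are shown because they hold short motifs tied to BMP signaling. Each sequence is the 250 bases before the annotated gene start, read from the reference genome Sscrofa11.1 and written 5′ to 3′ on the gene's strand. Capitals mark the motifs searched for. The HAMP stretch is chr6:44785613-44785862 on the plus strand. The SMAD7 stretch is chr1:98543925-98544174 on the minus strand.
HAMP: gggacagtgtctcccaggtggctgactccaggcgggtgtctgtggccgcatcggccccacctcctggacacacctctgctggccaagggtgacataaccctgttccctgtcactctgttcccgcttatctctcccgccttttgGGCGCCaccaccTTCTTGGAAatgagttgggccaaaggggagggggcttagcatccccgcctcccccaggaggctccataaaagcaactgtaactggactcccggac
SMAD7: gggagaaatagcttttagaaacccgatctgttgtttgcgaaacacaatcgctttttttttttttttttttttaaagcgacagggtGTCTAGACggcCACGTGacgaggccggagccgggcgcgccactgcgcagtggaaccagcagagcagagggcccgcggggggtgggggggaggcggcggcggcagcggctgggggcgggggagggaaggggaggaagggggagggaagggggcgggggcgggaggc

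The HAMP promoter held GGCGCC, a core of BMP-responsive elements, with its first base 107 bases before the start. It also held TTCTTGGAA, a match to the STAT motif TTCNNNGAA, with its first base 95 bases before the start. GGCGCC stood in 15.7% of the 20664 promoters of this length searched on both strands, TTCNNNGAA in 6.38%, and both together in 0.532%. The SMAD7 promoter held GTCTAGAC, a palindromic SMAD-binding sequence found in 0.16% of promoters, 165 bases before the start. It also held CACGTG, an E-box, 154 bases before the start, as 6.16% of promoters did. GGCGCC also stood 45 bases before the start of BMP6 and 117 bases before that of BMP2. The other 6 members had none of these motifs in this window. For SMAD4 the window lay inside the gene ELAC1, before the start of transcript XM_013985326.2. The other annotated SMAD4 transcripts start at position 100574125 or beyond, and the bases before those starts were not searched. A match describes the sequence and is not a measured binding site.

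HAMP, at chr6:44785863-44787303 with 3 exons, varied more between pigs on one diet than between diets. It measured 3.84, 2.02 and 70.5 FPKM in low-iron libraries 2, 3 and 7. In control libraries 4, 5 and 6 it measured 50.3, 42.0 and 16.2 FPKM. In high-iron libraries 2, 7 and 8 it measured 52.3, 6.87 and 21.8 FPKM. The low-iron group thus held both the lowest and the highest value of all 9 libraries, which were 34.9-fold apart, and the ranges of the 3 groups overlapped. The spread of HAMP within groups, an SD of 1.84 on the log2 scale, was wider than that of 99.3% of tested genes, whose median SD was 0.34.

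The group means of HAMP were 25.4 ± 39.0 FPKM (SD, n = 3) with low iron, 36.1 ± 17.8 in the control group and 27.0 ± 23.2 with high iron. Differences were tested with limma on log2(FPKM + 0.1), and fold changes are on that scale throughout. Low iron against control gave a log2 fold change of -1.96 for HAMP, with a 95% interval from -4.49 to 0.57 (limma adjusted p = 0.9998). The intervals for high iron ran from -3.23 to 1.83 against the control group and from -1.28 to 3.79 against the low-iron group. These intervals hold changes of more than 2-fold in both directions for high iron against either group. Without low-iron library 7, the log2 fold change of HAMP was -3.49 for low iron against control and 2.79 for high iron against low iron. Without low-iron library 3 it was -0.96 and 0.26.

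**Figure D1:**
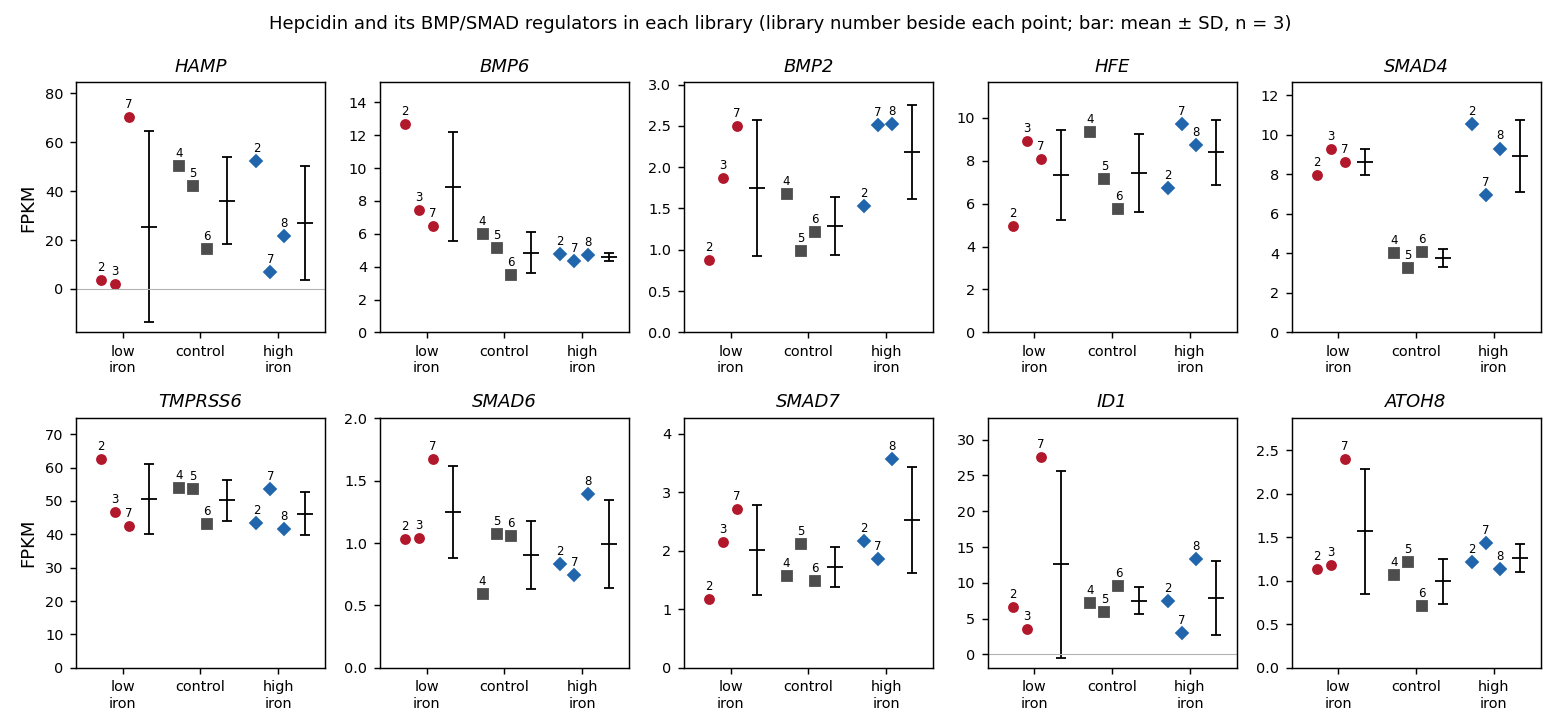
FPKM of hepcidin and 9 BMP/SMAD pathway genes (linear axes) in each of the 9 liver libraries, with the library number beside each point and the group mean ± SD (n = 3) as a bar. SMAD4 stood at 3.24 to 4.06 FPKM in the control libraries and at 6.97 to 10.5 FPKM in all others, while HAMP spanned 2.02 to 70.5 FPKM.

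A gene was called changed by the study's criteria, a difference of 2-fold or more together with p under 0.05 before adjustment. Of the 10 members, SMAD4 alone passed in low iron against control, where 0.882% of tested genes did. SMAD4 alone also passed in high iron against control, where 1.57% of tested genes did. No member passed in high iron against low iron, where 1.54% did. In limma with Benjamini-Hochberg adjustment no member passed an adjusted p-value of 0.05 in any comparison. Over all tested genes 0, 1 and 0 passed it in the same order of comparisons, beside 463, 704 and 900 with p under 0.05 before adjustment. The ranges of the groups did not overlap for 2, 1 and 1 of the members, and for 8.34%, 10.9% and 13.2% of tested genes. The median log2 fold change of the members was 0.28, 0.15 and -0.04, beside 0.08, 0.10 and 0.03 over all tested genes.

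BMP6 and BMP2 are the ligands of the set. BMP6 is the BMP ligand best known for following liver iron, and in these livers it was higher with low iron. BMP6, at chr7:5058817-5208868 with 7 exons, measured 12.7, 7.47 and 6.48 FPKM in the low-iron libraries. It measured 5.97, 5.11 and 3.48 FPKM in the control libraries and 4.75, 4.32 and 4.71 FPKM in the high-iron libraries. All 3 low-iron values lay above all 6 others, and the high-iron values fell inside the control range.

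The mean BMP6 level was 8.88 ± 3.33 FPKM (SD, n = 3) with low iron, 4.86 ± 1.26 in the control group and 4.59 ± 0.239 with high iron. The log2 fold change of BMP6 was 0.83 for low iron against control (standard error 0.28, limma unadjusted p = 0.0127, adjusted p = 0.9998). It was -0.88 for high iron against low iron (unadjusted p = 0.00948, adjusted p = 0.615). Both stayed under 2-fold, so BMP6 was not called. Exact two-sided permutation tests gave p = 0.1 for each, the smallest that 3 against 3 libraries allow. The exact permutation test over the 3 groups gave p = 0.0357 for BMP6, unadjusted for the number of members. Separate ranges in the direction of BMP6 were seen in 6.1% of tested genes for low iron against control and in 5.13% for high iron against low iron.

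BMP2, a second endothelial ligand of the hepatocyte receptors, lies at chr17:15750487-15762982. It measured 0.875, 1.87 and 2.50 FPKM with low iron, 1.67, 0.982 and 1.22 in the control group, and 1.53, 2.51 and 2.52 with high iron. The groups overlapped, although 2 of 3 values lay above every control value in the high-iron group and in the low-iron group alike. The log2 fold change of BMP2 was 0.71 for high iron against control (limma unadjusted p = 0.0922) and 0.33 for low iron against control.

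Whole liver holds the cells that make these ligands as well as hepatocytes, and in bulk samples fewer cells of a type and less RNA per cell cannot be told apart. The 12 endothelial markers summed to 230 to 299 FPKM with low iron, 226 to 259 in the control group and 277 to 324 with high iron. CLEC4G was the largest row of that sum, at 163 FPKM in low-iron library 7 and 78.5 and 82.4 FPKM in low-iron libraries 2 and 3. No marker of that list was at 0 in all libraries. Of these markers, 7 were higher in high iron than in control without overlap, beside 9.14% of tested genes, and VWF was called at a log2 fold change of 1.68. For low iron against control 2 of the 12 were higher without overlap, beside 6.1% of tested genes. The part of endothelial RNA in the BMP6 and BMP2 values was not tested. The hepatocyte markers, led by albumin, summed to 79244 to 101859 FPKM over all libraries, with overlapping groups. That sum was mostly ALB, and 8 of the 11 hepatocyte rows were lower in high iron than in control. Among them CPS1, the entry enzyme of the urea cycle, measured 331 to 513 FPKM with high iron and 722 to 843 FPKM in the control group, a log2 fold change of -0.88 (limma unadjusted p = 0.00416, adjusted p = 0.885).

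Of 11 ligands of the family, which include BMP6 and BMP2, 8 were tested. INHBA, the activin A subunit, was called in high iron against control. It measured 1.70, 1.41 and 4.03 FPKM with high iron and 1.09, 0.437 and 0.578 FPKM in the control group, a log2 fold change of 1.56 (limma adjusted p = 0.892). GDF15, a stress-induced member of the TGF-beta family, was called lower in high iron than in low iron. It measured 0.641, 0.409 and 1.98 FPKM with low iron, and 0.403 and 0.176 FPKM in high-iron libraries 7 and 8, while high-iron library 2 was listed at 0. Neither call held at a pseudocount of 1 in place of 0.1.

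HFE, the protein altered in the common hereditary hemochromatosis, helps the hepatocyte sense transferrin iron. It lies at chr7:20758604-20767004 and measured between 4.96 and 9.72 FPKM in the 9 libraries. All 3 groups overlapped, with means of 7.33, 7.42 and 8.39 FPKM for low iron, control and high iron. Its largest log2 fold change was 0.22, for high iron against low iron. Of 12 tested genes for receptors and co-receptors, which include HFE, only TFRC was called, beside 0.882% to 1.57% of all tested genes. For low iron against control 2 of the 12, TFRC and ENG, were higher without overlap, beside 6.1% of tested genes. For high iron against control 2 of the 12, ENG and ACVRL1, were, beside 9.14%. The transferrin receptor gene TFRC measured 87.9, 130 and 28.6 FPKM with low iron and 6.51, 17.0 and 7.51 FPKM in the control group. It measured 40.6, 15.9 and 18.5 FPKM with high iron, a range that overlapped both other groups. Its log2 fold change against control was 2.86 with low iron and 1.27 with high iron (limma adjusted p = 0.9998 and 0.892). The call for high iron was lost at a pseudocount of 1. TFRC was also called lower in high iron than in low iron, at -1.59 (limma unadjusted p = 0.0174, adjusted p = 0.640), and at -0.98 with a replicate block that call was lost. Hemojuvelin, the BMP co-receptor, listed under its older symbol HFE2, measured 27.5 to 55.9 FPKM, and the groups overlapped. TFR2, the partner of HFE, measured 141 to 190 FPKM with overlapping groups.

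SMAD4, the common partner of the receptor SMADs, was the only member called by the study's criteria. It lies at chr1:100521843-100633501, with 5 annotated transcripts of 12 to 13 exons. SMAD4 measured 7.97, 9.28 and 8.64 FPKM in the low-iron libraries and 10.5, 6.97 and 9.31 FPKM in the high-iron libraries. In the control libraries it measured 4.02, 3.24 and 4.06 FPKM. All 3 control values lay below all 6 others, and the low-iron and high-iron ranges overlapped.

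Mean SMAD4 was 8.63 ± 0.655 FPKM (SD, n = 3) with low iron, 3.77 ± 0.460 in the control group and 8.94 ± 1.81 with high iron. The log2 fold change against control was 1.18 with low iron (95% interval 0.73 to 1.62, limma unadjusted p = 0.000131, adjusted p = 0.9998). With high iron it was 1.21 (0.77 to 1.66, unadjusted p = 0.000104, adjusted p = 0.328). These comparisons share the same 3 control libraries, so they are not independent of each other. Exact two-sided permutation gave p = 0.1 for each, the smallest possible, and p = 0.0321 over the 3 groups, unadjusted for the number of members. Between high and low iron the log2 fold change of SMAD4 was 0.03, with an interval from -0.41 to 0.48. Separate ranges in the direction of SMAD4 were seen in 6.1% of tested genes for low iron and in 9.14% for high iron against control.

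The within-group SD of SMAD4 on the log2 scale, 0.21, was wider than that of only 17.7% of tested genes. The call was kept under every alternative that held the control group. The log2 fold changes ran from 1.02 to 1.23 for low iron and from 1.05 to 1.38 for high iron against control. Macrophage markers summed to 869 to 1012 FPKM with high iron, 735 to 839 with low iron and 673 to 832 in the control group. Of these 8 markers, 6 were higher in high iron than in control without overlap, beside 9.14% of tested genes. In low iron against control 1 of the 8 was, beside 6.1%. Of the 12 endothelial markers, STAB1 and TEK had all control values below all other values, as SMAD4 had. They were the 2 higher without overlap in low iron against control (6.1% of tested genes). Both stood among the 7 that were higher in high iron against control (9.14%). The part of macrophages or endothelial cells in the SMAD4 values was not tested.

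SMAD4 overlaps ELAC1, a tRNA-processing enzyme gene on the same strand, and LOC102159046 on the other strand. The library kit does not keep strand. ELAC1 averaged 0.934, 0.967 and 1.01 FPKM with low iron, control and high iron, and LOC102159046 measured 0.178 FPKM or less in every library. The next genes on either side did not have all 3 control values below all others, as SMAD4 had. The malic enzyme gene ME2 averaged 3.44, 3.30 and 5.53 FPKM, with all 3 high-iron values above the control values, and MEX3C, an RNA-binding protein gene, averaged 3.43, 3.88 and 4.04 FPKM. The annotated transcripts of SMAD4 differ in their last exon, which is 1527 bases long in 1 transcript and 7000 bases long in the other 4. The table gives 1 value for the gene, so the use of these exons was not analysed here.

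**Figure D2:**
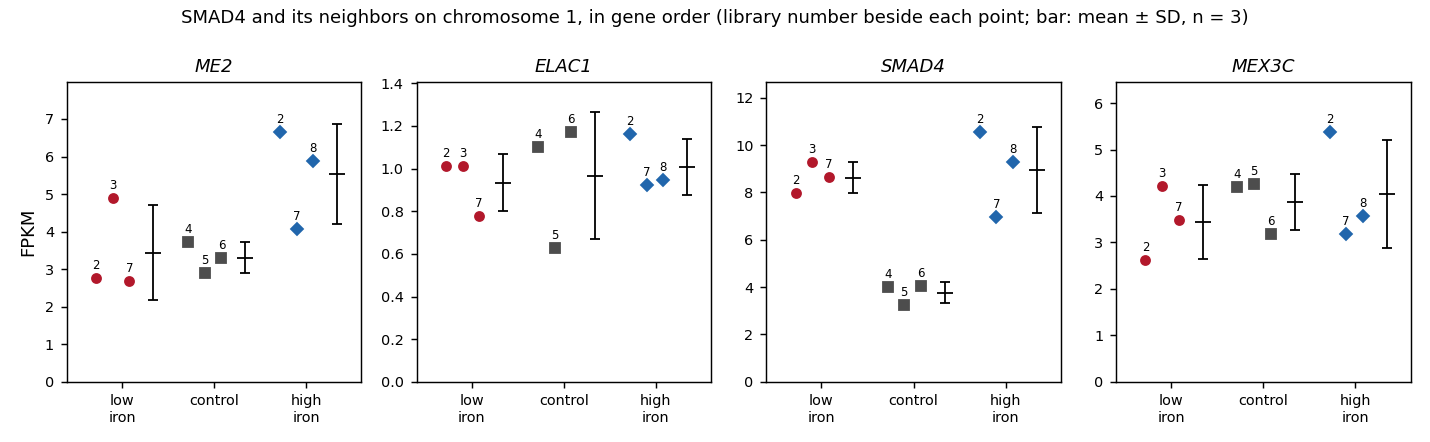
FPKM of SMAD4 and 3 neighboring genes on chromosome 1, in gene order, in each of the 9 libraries (linear axes, library number beside each point), with group mean ± SD (n = 3). In SMAD4 the control libraries lay below all others, while in ELAC1 and MEX3C the 3 groups overlapped.

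The receptor SMADs that join SMAD4 were not called. SMAD1, SMAD5 and SMAD9 had log2 fold changes of 0.16, 0.14 and 0.42 for low iron and 0.07, 0.26 and 0.64 for high iron against control, with overlapping groups.

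TMPRSS6, a membrane protease that cuts hemojuvelin and so damps the signal, had the highest mean FPKM of the members and the smallest ratio of highest to lowest value. It lies at chr5:10663491-10704583 and overlaps LOC102159397, annotated on the opposite strand. TMPRSS6 measured 62.4, 46.5 and 42.5 FPKM with low iron, 53.9, 53.5 and 42.9 in the control group, and 43.5, 53.5 and 41.5 with high iron. The groups overlapped, and the values of all 9 libraries lay between 41.5 and 62.4 FPKM. The 95% interval of its log2 fold change for low iron against control was within 2-fold in both directions.

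SMAD6 and SMAD7 are inhibitory SMADs that the pathway induces against itself. SMAD6, at chr1:164652602-164735084, measured 1.03, 1.04 and 1.67 FPKM with low iron, 0.592, 1.07 and 1.06 in the control group, and 0.833, 0.746 and 1.40 with high iron. SMAD7, at chr1:98512800-98543924, measured 1.18, 2.14 and 2.71 FPKM with low iron, 1.56, 2.12 and 1.48 in the control group, and 2.17, 1.85 and 3.56 with high iron. The groups of both genes overlapped in every comparison. Their log2 fold changes lay between -0.32 and 0.49. Of 17 tested inhibitors and antagonists of the pathway, none was called in any comparison, beside 0.882% to 1.57% of all tested genes. For low iron against control 2 of the 17, FURIN and SKIL, were higher without overlap, beside 6.1% of tested genes. For high iron against control 1 of the 17, SKIL, was, beside 9.14% of tested genes. FURIN, a protease that can release soluble hemojuvelin, measured 72.4 to 90.7 FPKM with low iron and 63.2 to 68.6 FPKM in the control group, a log2 fold change of 0.29 (limma unadjusted p = 0.109). SKIL, a repressor of SMAD-driven transcription, measured 2.49 to 2.84 FPKM in the control group. It measured 3.23 to 3.73 FPKM with low iron and 3.27 to 5.99 FPKM with high iron. Its control values thus lay below all others, as those of SMAD4, ENG, STAB1 and TEK did. The share of tested genes with this pattern was not counted. The log2 fold change of SKIL against control was 0.40 with low iron (limma unadjusted p = 0.123) and 0.64 with high iron (unadjusted p = 0.0231, adjusted p = 0.892).

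ID1 and ATOH8 are target genes that rise with BMP signaling in hepatocytes. ID1, at chr17:35316518-35317742 with 2 exons, measured 6.66, 3.53 and 27.6 FPKM with low iron, 7.12, 5.89 and 9.53 in the control group, and 7.40, 3.01 and 13.3 with high iron. Its highest value stood in low-iron library 7, as that of HAMP did, and its lowest values stood in high-iron library 7 and low-iron library 3. Its within-group SD of 1.08 on the log2 scale was wider than that of 96.4% of tested genes. The log2 fold changes of ID1 were 0.23, -0.14 and -0.37 for low iron against control, high iron against control and high iron against low iron, with overlapping groups in each.

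ATOH8, a transcription factor that can act on the HAMP promoter, lies at chr3:58964541-59001620. It measured 1.13, 1.18 and 2.40 FPKM with low iron, 1.07, 1.21 and 0.710 in the control group, and 1.22, 1.44 and 1.13 with high iron. Low-iron library 7 again held the highest value, and the groups overlapped. Of 12 tested target genes of BMP signaling, none was called in any comparison, beside 0.882% to 1.57% of all tested genes.

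**Figure D3:**
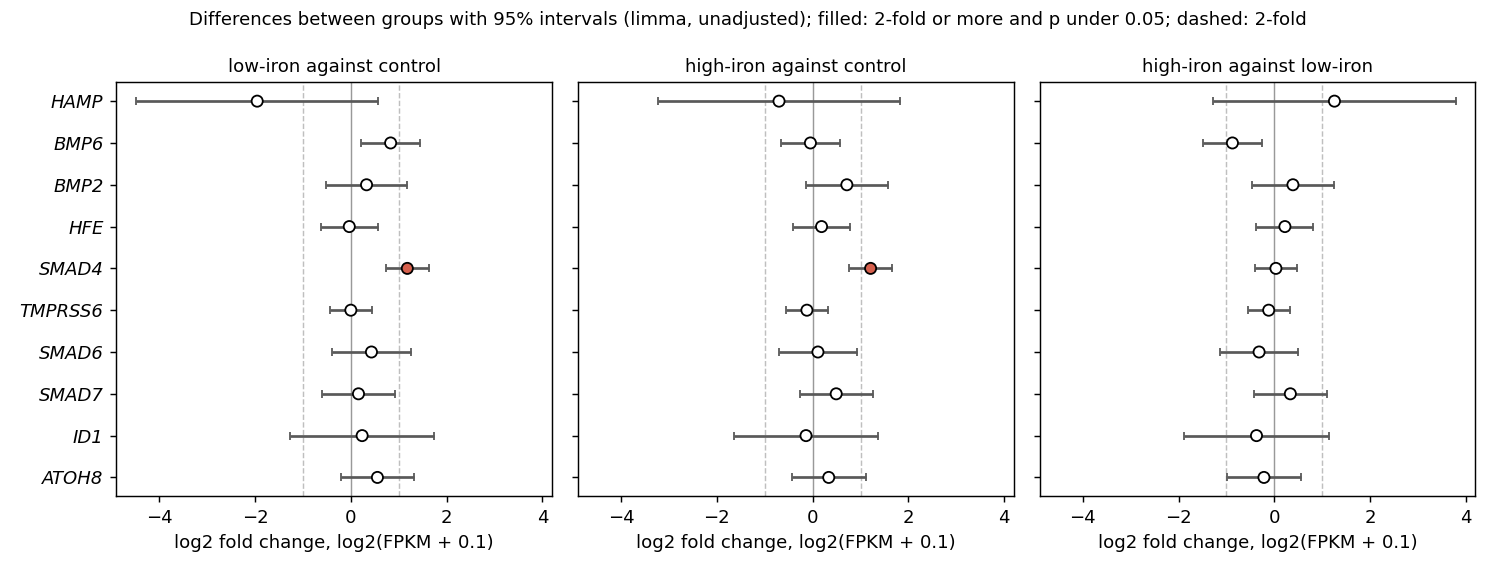
Log2 fold changes (limma, on log2(FPKM + 0.1)) of the 10 members with unadjusted 95% intervals in the 3 comparisons, with filled points for those called at 2-fold (dashed lines) and p under 0.05. SMAD4 was called in both comparisons with the control group, and the interval of BMP6 lay off 0 for low iron against both other groups.

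HAMP can also be driven by interleukin 6 through STAT3. The interleukin genes IL6 and IL1B lay under the filter and were not tested, with IL6 at 0.574 FPKM or less in every library. None of the 11 tested genes of this arm and none of the 17 tested rows of acute phase genes was called in any comparison. Over all tested genes 0.882% to 1.57% were called, depending on the comparison. Of the 17 acute phase rows, 4 were higher for low iron against control, 8 for high iron against control and 15 for high iron against low iron, beside 62.7%, 65.0% and 53.6% of all tested genes. STAT3 had a log2 fold change of 0.12 for low iron and -0.47 for high iron against control. Ferroportin (SLC40A1), the exporter that hepcidin blocks, measured 187 to 210 FPKM with high iron and 127 to 172 FPKM in the control group, a log2 fold change of 0.41 (limma adjusted p = 0.892).

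Each other member was compared with HAMP over the 9 libraries, which differ in diet as well as in animal, on log2(FPKM + 0.1). The highest correlation was with ID1, at Pearson's r = 0.63 (exact permutation p = 0.0651, adjusted p = 0.9995) and Spearman's rho = 0.63 (exact permutation p = 0.0760, adjusted p = 1). The p-values were adjusted over the 12583 tested genes compared with HAMP. Of these genes, 224 had a higher r than ID1, and 2.86% had an unadjusted exact permutation p under 0.05. Without low-iron libraries 2 and 3, the libraries farthest from the median of HAMP, r with ID1 was 0.59. Leaving out each library in turn gave r from 0.52 to 0.70. With each group centred on its own mean, r was 0.80 (exact permutation p = 0.111, within groups).

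BMP6 had the lowest r with HAMP among the members, -0.42 (exact permutation p = 0.268, adjusted p = 0.9995), with Spearman's rho = -0.12 (exact permutation p = 0.776, adjusted p = 1). Without low-iron libraries 2 and 3 its r was 0.74, so the sign rested on those libraries. For SMAD7, r was 0.35 (exact permutation p = 0.355, adjusted p = 0.9995) and rho 0.45 (exact permutation p = 0.230, adjusted p = 1). For ATOH8, r was 0.27 (exact permutation p = 0.496, adjusted p = 0.9995) and rho 0.35 (exact permutation p = 0.359, adjusted p = 1). Without low-iron libraries 2 and 3, r was 0.21 for SMAD7 and 0.35 for ATOH8. The r values of the other 5 members lay between -0.35 for TMPRSS6 and 0.11 for BMP2. No member had an adjusted p-value under 0.05.

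**Figure D4:**
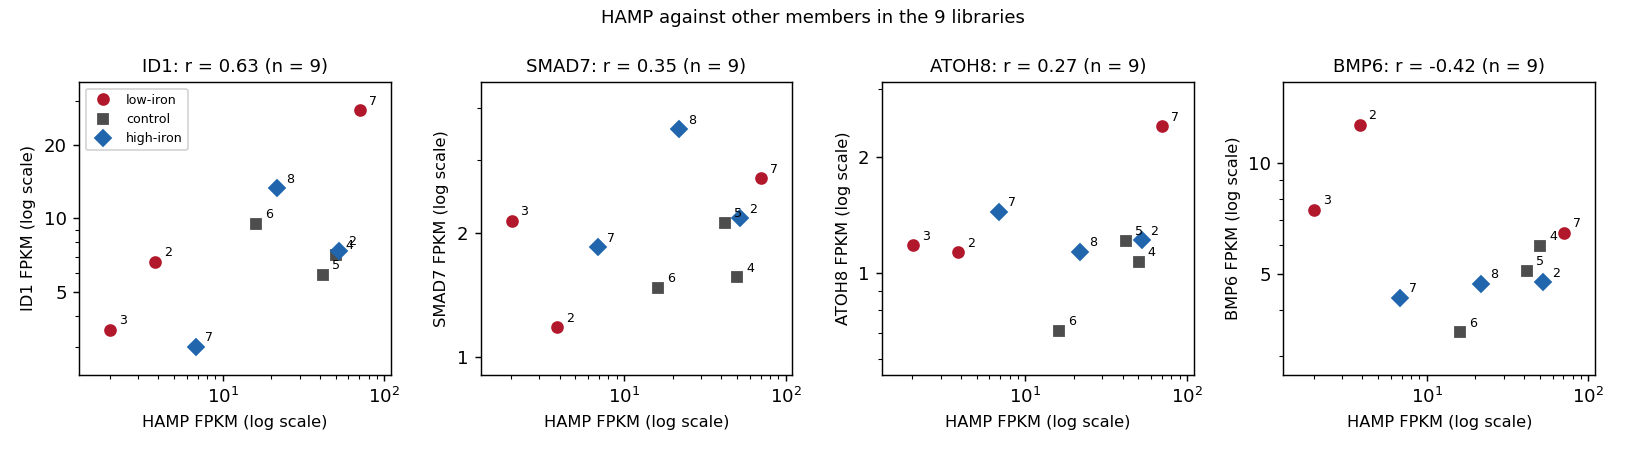
FPKM of ID1, SMAD7, ATOH8 and BMP6 against FPKM of HAMP in the 9 libraries (both axes logarithmic, symbols by group, library number beside each point). ID1 and HAMP were both highest in low-iron library 7, and for BMP6 low-iron libraries 2 and 3 lay high at low HAMP.

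**Figure D5:**
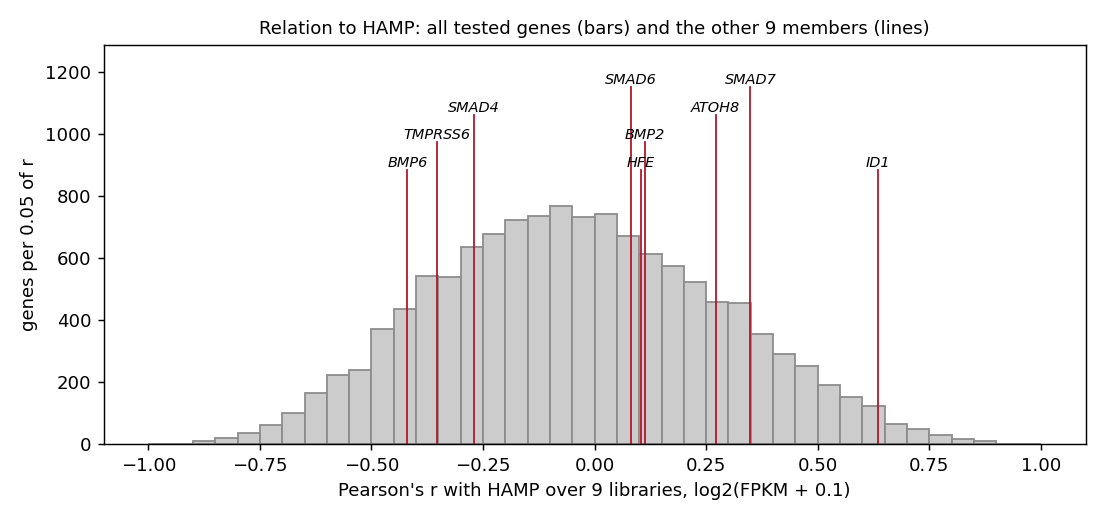
Pearson's r with HAMP over the 9 libraries for all 12583 other tested genes (bars, number of genes per 0.05 of r) and for the other 9 members (lines). ID1 stood at 0.63, above 98.2% of tested genes, and the other members lay between -0.42 and 0.35.

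By the rule set for likeness, the genes whose log2 levels were closest to HAMP over the 9 libraries were TADA2A (r = 0.92), FAR2 (0.90), BACH2 (0.89), MLLT1 (0.89) and USP46 (0.87). The genes most opposed were CLPTM1 (-0.90), TLK2 (-0.90) and MAP4 (-0.89). For ID1 the closest were FBP1 (0.93), SLC25A34 (0.93) and CRCP (0.91), and for SMAD4 they were DENND4B (0.95), GRAMD1A (0.94) and PRKCSH (0.93). FBP1, a gluconeogenic enzyme, measured 778 FPKM in low-iron library 7, where ID1 was highest, and 340 to 492 FPKM in the others. These are the extremes of many genes over few libraries and are given as a description.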

How the data were processed

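The deposited table holds FPKM for 9 liver libraries and no counts, so the reads behind a single gene value are not given. The study lists the mapped reads of each library, which were most for high-iron libraries 2 and 8. Poly(A) RNA libraries were made with a NEBNext Ultra kit. The authors aligned clean reads to Sscrofa11.1 with HISAT2 and assembled transcripts with StringTie before they deposited the FPKM values. The groups follow the series design text, which assigns each library title to a diet, since the treatment field of each library was left unfilled. Iron amounts, age and feeding times follow the study's methods. Gene numbers were matched to the gene order of NCBI annotation release 106, and all 20660 numbered genes fell on protein-coding genes.

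FPKM of at least 0.5 on average was required, and log2(FPKM + 0.1) was fitted for the 3 groups with limma 3.58.1 in R 4.3.3, with empirical Bayes moderation and a trend. Adjusted p-values follow Benjamini-Hochberg over all tested genes. The study screened genes with DESeq2 on counts, which FPKM does not allow. The fit was tested on simulated data. Exact permutation tests were run in Python 3.11.15 with numpy 2.4.6, and ranks were taken with scipy 1.17.1. Each library is 1 pig.

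The members, gene lists and rules were chosen with earlier results of these data known. Named genes are all members, genes of the pathway and marker lists called in any comparison, and those most like HAMP, ID1 and SMAD4. SMAD1, SMAD5, SMAD9, HFE2, TFR2, ENG, ACVRL1, FURIN, SKIL, CPS1, APOA2, STAT3, SLC40A1 and the genes of the closing section were picked after their values were seen. The same holds for the endothelial markers CLEC4G, STAB1 and TEK. COL1A1, RGS5, CD8A, SPP1 and JCHAIN, markers of other cells, were called but are not described. Alternatives were other pseudocounts, filters and scalings, array weights, EIF1AY as a covariate, a replicate block and leaving out each library.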

Additional observations from a re-analysis of the deposited data

How the results depend on the processing

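SMAD4 was called in both comparisons with the control group under every alternative that held this group. The replicate block did not hold it. Without low-iron replicate 7 the members called numbered 3 for low iron against control (SMAD4, HAMP and BMP6) and 2 for high iron against low iron (HAMP and BMP6). Over all left-out libraries these counts ranged from 1 to 3 and from 0 to 2. Without that library BMP6 had a log2 fold change of 1.02 for low iron against control and -1.07 for high iron against low iron. The cause was not tested.

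Of the fold changes of members under alternatives, 546 kept their direction and side of the thresholds, 30 changed sign and 4 passed the thresholds anew. The changes of sign among them included HAMP and ID1 when a library was left out, as given below by range. For SMAD6 in high iron against control, median-of-ratios scaling gave -0.00786 and quantile normalization -0.091. For SMAD4 in high iron against low iron, median-of-ratios scaling gave -0.014 and the EIF1AY covariate -0.00518. Array quality weights gave 0.024 for TMPRSS6 in low iron and 0.12 for ID1 in high iron against control. Centred on group means, r of SMAD4 with HAMP was 0.29.

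Leaving out each library in turn, log2 fold changes for low iron against control ranged from -0.20 to 0.22 for HFE, -0.16 to 0.11 for TMPRSS6, -0.085 to 0.48 for SMAD7 and -0.59 to 0.87 for ID1. For high iron against control they ranged from -1.40 to 0.059 for HAMP, -0.26 to 0.12 for BMP6, -0.14 to 0.27 for SMAD6 and -0.63 to 0.42 for ID1. For high iron against low iron they ranged from -0.035 to 0.38 for HFE, -0.23 to 0.044 for TMPRSS6, -0.017 to 0.69 for BMP2, -0.10 to 0.20 for SMAD4, -1.01 to 0.45 for ID1 and -0.40 to 0.11 for ATOH8. The r with HAMP ranged from -0.30 to 0.37 for HFE, -0.19 to 0.27 for BMP2, -0.25 to 0.37 for SMAD6 and -0.12 to 0.35 for ATOH8.

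Low-iron and high-iron libraries share the numbers 2 and 7, and the labels do not say whether equal numbers mark anything shared. Their deviations from the group means correlated at 0.02 in both pairs. So few pairs cannot show whether these libraries share more than a number. A fit with the number as a replicate block, on those 4 libraries, called 0 members in high iron against low iron, with a log2 fold change of 0.20 for HAMP and -0.99 for BMP6, and called 457 genes in place of 194.

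Median-of-ratios scaling moved the median of all tested genes in high iron against control from 0.10 to -0.03. It gave 51 genes higher and 47 lower for low iron against control in place of 75 and 36, and 94 and 57 for high iron against control in place of 160 and 37. Quantile normalization gave 52 and 58, and 82 and 59. For high iron against low iron, 127 higher and 67 lower became 91 and 92 with quantile normalization. With a pseudocount of 1, 34, 74 and 67 genes were called in the 3 comparisons in place of 111, 197 and 194. Without a filter 235, 372 and 354 were called.

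With 3 libraries a group, a single pig decides whether HAMP is called. The counting error of a value could not be estimated, since no counts are given.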

Other observations

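The genes most opposed to ID1 over the 9 libraries were picked after their values were seen. IGFBP1, an IGF-binding protein that the liver secretes in fasting, had r = -0.97 with ID1. It measured 86.3, 200 and 19.8 FPKM in low-iron libraries 2, 3 and 7, 89.4, 132 and 49.3 FPKM in control libraries 4, 5 and 6, and 77.1, 150 and 50.9 FPKM in high-iron libraries 2, 7 and 8. Its lowest value stood in low-iron library 7, where ID1 and HAMP were highest, and its highest in low-iron library 3, where HAMP was lowest. TM4SF4, a tetraspanin-like membrane protein gene (r = -0.93), and CITED2, a transcription coregulator gene (-0.89), were also opposed to ID1, with their highest values in high-iron library 7.

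MAG, at chr6:44794197-44809933 next to HAMP, is best known as a myelin protein gene. It was low throughout, at 0.610, 0.0178 and 1.37 FPKM with low iron, 0.594, 0.442 and 0.430 FPKM in the control group, and 0.865, 0.191 and 0.520 FPKM with high iron. Its r with HAMP over the 9 libraries was 0.78, beside 0.36 for USF2 and -0.52 for LSR, the genes on the other side of HAMP. These values were also picked after they were seen.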
